A study of Mus musculus with 2 samples.

Results

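Genes of the nasal and airway epithelium were read on 2 Affymetrix arrays of RNA labelled as from mouse embryonic stem (ES) cells. The members are Bpifa1, Cyp2a5, Cyp2g1, Cyp2f2, Stoml3, Sec14l3, Gpx6, Cnga4, Ugt2a1 and Omp, 10 of 17097 genes that the platform annotation names by a probe set with 1 symbol. They were chosen by name as genes of these epithelia, selected on earlier results of these arrays in which several had a large log2 difference between the arrays. Their values are therefore a description and carry no test. All 10 have a probe set, 13 probe sets in all: 8 genes have 1, Omp has 2 and Sec14l3 has 3.

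The arrays are labelled control KD and TET2 KD. Both are described as C57BL/6 mouse ES cells, grown without feeder cells on gelatin in medium with serum and ESGRO. The control KD cells received a lentivirus with a scramble RNA, and the TET2 KD cells a lentivirus with a short hairpin RNA against Tet2 driven by the U6 promoter. Both were treated with puromycin for 72 h, and 2 µg of total RNA was copied from an oligo(dT) primer. The labels name neither the ES cell line nor the hairpin. Each group has 1 array, so no value below carries a replicate error or a test, and having 2 arrays limits the precision.

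The olfactory mucosa lines the upper nasal cavity. Its olfactory receptor neurons turn odours into current through a G protein, an adenylyl cyclase and a cyclic nucleotide-gated channel, and die and are replaced throughout life. Sustentacular cells and Bowman glands surround them and are rich in cytochromes P450 and conjugating enzymes, which clear inhaled chemicals and spent odorants. Below it, the respiratory epithelium of the nose and conducting airway holds ciliated, secretory and basal cells. The labels name none of these cell types.

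The stretches before the members' start sites are shown first. RefSeq's promoter table of build GRCm38.p6 holds a promoter for 8 of the 10 members, each running from 250 bases before the start to 50 after it. The 250 bases before the start are printed for the 6 of these whose signal was at least 2-fold lower in the TET2 KD-labelled array, as shown further on. They lie at chr2:154142630-154142879 for Bpifa1, chr7:26835089-26835338 for Cyp2a5, chr7:27119705-27119954 for Cyp2f2, chr3:53488457-53488706 for Stoml3, chr11:4064603-4064852 for Sec14l3 and chr13:21311953-21312202 for Gpx6, all on the plus strand. Each reads 5′ to 3′ up to the base before the start, and capitals mark each CG dinucleotide and each TATAAA.
Bpifa1: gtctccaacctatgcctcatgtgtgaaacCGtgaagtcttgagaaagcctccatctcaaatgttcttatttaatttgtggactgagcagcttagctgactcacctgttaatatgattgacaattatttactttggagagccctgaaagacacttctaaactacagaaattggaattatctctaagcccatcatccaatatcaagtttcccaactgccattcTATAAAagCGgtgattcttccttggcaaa
Cyp2a5: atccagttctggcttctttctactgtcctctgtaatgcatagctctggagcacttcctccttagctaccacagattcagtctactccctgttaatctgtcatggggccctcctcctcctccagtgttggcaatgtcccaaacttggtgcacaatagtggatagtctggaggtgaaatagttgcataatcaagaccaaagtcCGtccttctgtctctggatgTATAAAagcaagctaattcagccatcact
Cyp2f2: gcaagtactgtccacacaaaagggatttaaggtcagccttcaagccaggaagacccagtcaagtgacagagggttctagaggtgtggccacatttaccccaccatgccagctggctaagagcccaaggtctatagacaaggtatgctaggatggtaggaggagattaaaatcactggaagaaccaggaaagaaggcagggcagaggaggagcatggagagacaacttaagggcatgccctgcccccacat
Stoml3: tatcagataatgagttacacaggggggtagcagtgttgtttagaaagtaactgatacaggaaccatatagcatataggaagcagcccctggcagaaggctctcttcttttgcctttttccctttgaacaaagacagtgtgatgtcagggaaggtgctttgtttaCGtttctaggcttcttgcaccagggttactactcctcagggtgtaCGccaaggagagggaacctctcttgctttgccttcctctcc
Sec14l3: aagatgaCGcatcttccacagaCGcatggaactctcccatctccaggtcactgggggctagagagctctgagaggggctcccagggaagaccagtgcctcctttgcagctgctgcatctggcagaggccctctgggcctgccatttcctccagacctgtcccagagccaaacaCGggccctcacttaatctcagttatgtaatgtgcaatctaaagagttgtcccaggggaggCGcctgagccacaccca
Gpx6: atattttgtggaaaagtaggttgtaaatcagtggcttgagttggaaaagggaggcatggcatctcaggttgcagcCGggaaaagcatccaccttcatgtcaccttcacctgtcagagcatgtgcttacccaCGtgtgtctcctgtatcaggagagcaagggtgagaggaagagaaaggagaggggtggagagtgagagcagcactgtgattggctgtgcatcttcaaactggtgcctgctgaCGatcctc

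These stretches hold few CG dinucleotides, the substrate of DNA methylation in mammals and so of TET enzymes. Cyp2f2 has 0, Cyp2a5 has 1, Bpifa1 and Stoml3 have 2 each, Gpx6 has 3 and Sec14l3 has 4. Over the full 300 bases the 8 members with a promoter had 0 to 4 CG dinucleotides, with a median of 3. The median was 7 over all 32851 promoters of the table, and 38.0% of them had 4 or fewer. It was 20 over the 11821 promoters of genes at or above the floor described below on at least 1 array, of which 10.7% had 4 or fewer. The members are thus among the promoters with few CG dinucleotides, as are many others of the table.

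TATAAA, the core of the TATA box, was searched on both strands. It was found in 3 of the 8 members, Bpifa1, Cyp2a5 and Ugt2a1, beside 13.6% of all promoters. In Bpifa1 and in Cyp2a5 it began 29 bases before the start, as the capitals show, and in Ugt2a1 168 bases before it. The palindromic form of the Olf/Ebf motif, named for factors of olfactory neurons, was found in Sec14l3 and in 0.904% of all promoters. The full palindrome of nuclear factor I was found in 0 of the 8 members and in 0.0365% of all promoters. A match of letters is not a site in use, and these 2 arrays carry no measure of binding or methylation.

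**Figure D1:**
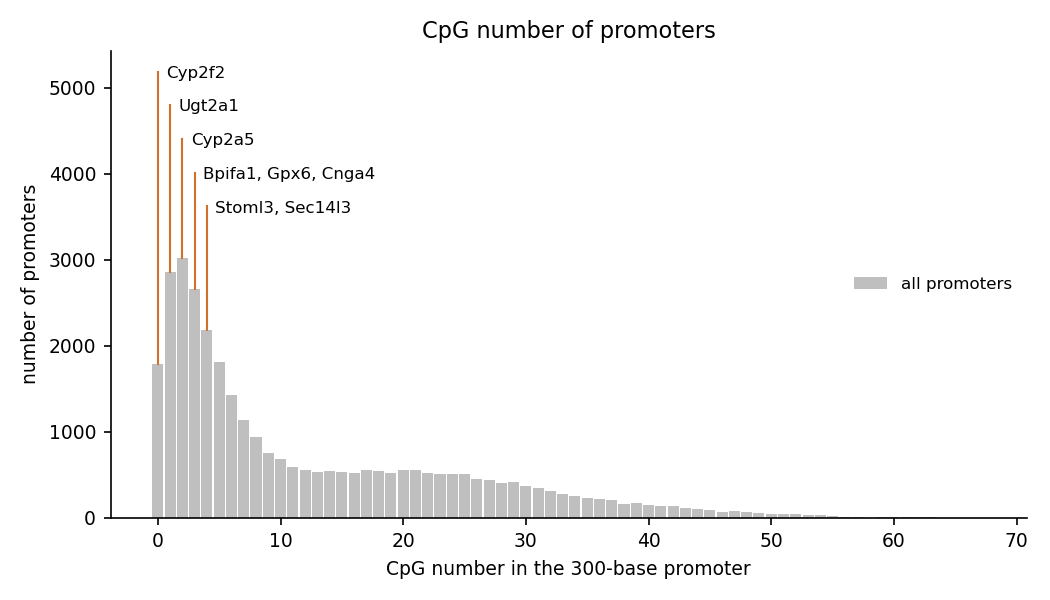
Number of promoters (y axis) by the number of CpG, that is CG dinucleotides, in their 300 bases (x axis). Grey bars are all 32851 promoters and orange lines mark the 8 members, which lie between 0 and 4.

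Signal is given as the authors' log2 value per probe set. The median of all values other than Affymetrix controls, 2.55, served as the floor, and a value under it was read as a bound. Differences are TET2 KD-labelled minus control KD-labelled array, with values under the floor set to it. A gene was counted as lower or higher past 2-fold, a difference of 1, and a gene under the floor on both arrays has no fold. A gene with several probe sets was counted by the one with the highest mean.

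Signal of the targeted gene was close on both arrays. The 2 probe sets of Tet2 read 5.48 and 5.22, and 5.62 and 5.57, in the control KD-labelled and TET2 KD-labelled arrays, so directions below are those of the labels alone. Of 4 defining ES cell markers, Zfp42 read 10.56 and 10.58 and Sox2 7.09 and 6.98, while Pou5f1 (1.07 and 1.29) and Nanog (1.01 and 0.97) were under the floor on both. Xist, the RNA of the inactive X chromosome, read 9.34 and 3.62 and the Y-linked gene Eif2s3y 0.89 and 6.14, so the arrays also differ in sex-linked genes. Of 19 ES cell markers with a probe set, 6 were under the floor on both arrays, Pou5f1 and Nanog among them. Of the 13 at or above it on at least 1 array, 1 passed 2-fold, Klf4 at 5.87 and 6.88. The other probe set of Klf4 read 2.99 and 3.51, within 2-fold.

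Of the 10 members, 7 were lower by 2-fold or more in the TET2 KD-labelled array and 0 were higher. Over all genes at or above the floor on at least 1 array, 143 of 11388 were lower (1.26%) and 130 were higher (1.14%). The members were chosen with this contrast in view, so nothing is read from that comparison. The 7 read between 5.12 and 7.62 in the control KD-labelled array, and 6 of them were under the floor in the other. Of the other 3, Cnga4 was at or above the floor in the control KD-labelled array alone, and Ugt2a1 and Omp were under it on both. The member nearest inside the threshold was Gpx6, at least 5.91-fold lower, and the nearest outside was Cnga4, at least 1.11-fold lower.

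**Figure D2:**
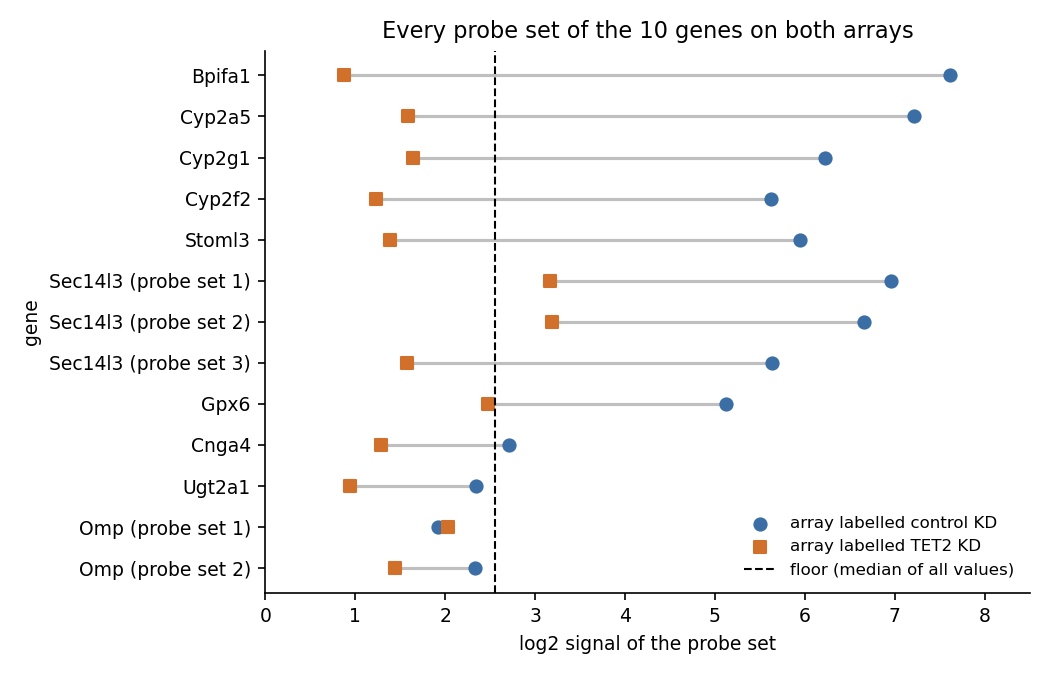
Log2 signal (x axis) of the 13 probe sets of the 10 genes (y axis), with circles for the control KD-labelled array, squares for the TET2 KD-labelled array and a dashed line at the floor of 2.55. Circles of the first 7 genes lie right of the floor, from 5.12 upward, and their squares lie left of it apart from 2 probe sets of Sec14l3.

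Bpifa1 encodes a secreted BPI fold protein of the upper airway and nasal glands that coats the mucosal surface. Its probe set read 7.62 in the control KD-labelled array and 0.88 in the TET2 KD-labelled array. The second value is under the floor, so the signal was at least 33.5-fold lower, the largest bound among the members.

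The cytochromes P450 of family 2 are membrane enzymes of the endoplasmic reticulum that oxidise foreign compounds. Cyp2a5, the coumarin hydroxylase of liver and olfactory mucosa, read 7.22 and 1.59 in the control KD-labelled and TET2 KD-labelled arrays, at least 25.4-fold lower in the second. Cyp2g1, an enzyme largely restricted to the olfactory mucosa, read 6.23 and 1.64, at least 12.8-fold lower. Cyp2f2, the naphthalene-oxidising enzyme of club cells that is also found in nose and liver, read 5.63 and 1.23, at least 8.41-fold lower. All 3 were well above the floor in one array and under it in the other. The Cyp2a5 probe set carries the mark of one shared between transcripts, and its near-identical neighbour Cyp2a4 has no probe set named for it, so its signal may hold both.

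Sec14l3, a lipid-binding protein of the Sec14 family, is the member with the most probe sets. In the control KD-labelled array they read 6.95, 6.65 and 5.63, and in the TET2 KD-labelled array 3.16, 3.18 and 1.57. The first pair of values is measured on both sides, 13.8-fold apart, and the second 11.1-fold, while the third gives a bound of at least 8.45-fold. All 3 probe sets were lower by more than 2-fold. It is the only one of the 7 lower members whose brightest probe set stayed above the floor on both.

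Gpx6, a glutathione peroxidase described from the olfactory epithelium, read 5.12 and 2.47, at least 5.91-fold lower in the TET2 KD-labelled array. Its second value lies just under the floor, so the bound is close to the difference as measured, -2.65 on the log2 scale. Ugt2a1, a glucuronosyltransferase of the olfactory epithelium that conjugates odorants, read 2.34 and 0.94. Both values are under the floor and give no fold.

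Members of the olfactory neurons themselves were less alike. Stoml3, a stomatin domain protein of olfactory and mechanosensory neurons, read 5.95 and 1.38, at least 10.5-fold lower in the TET2 KD-labelled array. Cnga4, a modulatory subunit of the olfactory transduction channel, read 2.71 and 1.28, which against the floor is a difference of -0.16. Omp, the classical marker of mature olfactory neurons, read 1.92 and 2.03 in one probe set and 2.33 and 1.44 in the other. Signal above the floor on the control KD-labelled array was therefore seen for Stoml3, barely for Cnga4 and for neither probe set of Omp.

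As measured, without the floor, 9 of the 10 genes were lower by 2-fold or more in the TET2 KD-labelled array, beside 1.35% of all 17097 genes. The members were chosen with this contrast in view, so nothing is read from that comparison either. Without the floor the differences of Cnga4 (-1.43) and Ugt2a1 (-1.39) count, although they rest on values at background. Omp is the exception, at 0.12 in its brighter probe set and -0.89 in the other. None of the 13 probe sets shares both of its values with another probe set, as 1892 probe sets of the table do.

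Of 6645 genes at 5 or more in the control KD-labelled array, 10 were under the floor in the other (0.15%), and 6 of the 10 are members: Bpifa1, Cyp2a5, Cyp2g1, Stoml3, Cyp2f2 and Gpx6. The level of 5 was chosen after the values were seen and lies just under Gpx6 and just above S100a8 (4.97 and 1.99) and Igkj1 (4.86 and 2.47), and the members were chosen with this contrast in view, so nothing is read from their share. The other 4 were Fshb, the follitropin subunit of the pituitary (5.31 and 1.21), the paraoxonase Pon1 (5.09 and 2.08), the neutrophil protein S100a9 (5.06 and 2.55) and the epithelial adhesion molecule Epcam (5.05 and 2.14). A second probe set of Epcam read 2.00 on both arrays. In the reverse direction 1 of 6510 genes, Eif2s3y, was at 5 or more in the TET2 KD-labelled array and under the floor in the other (0.0154%).

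**Figure D3:**
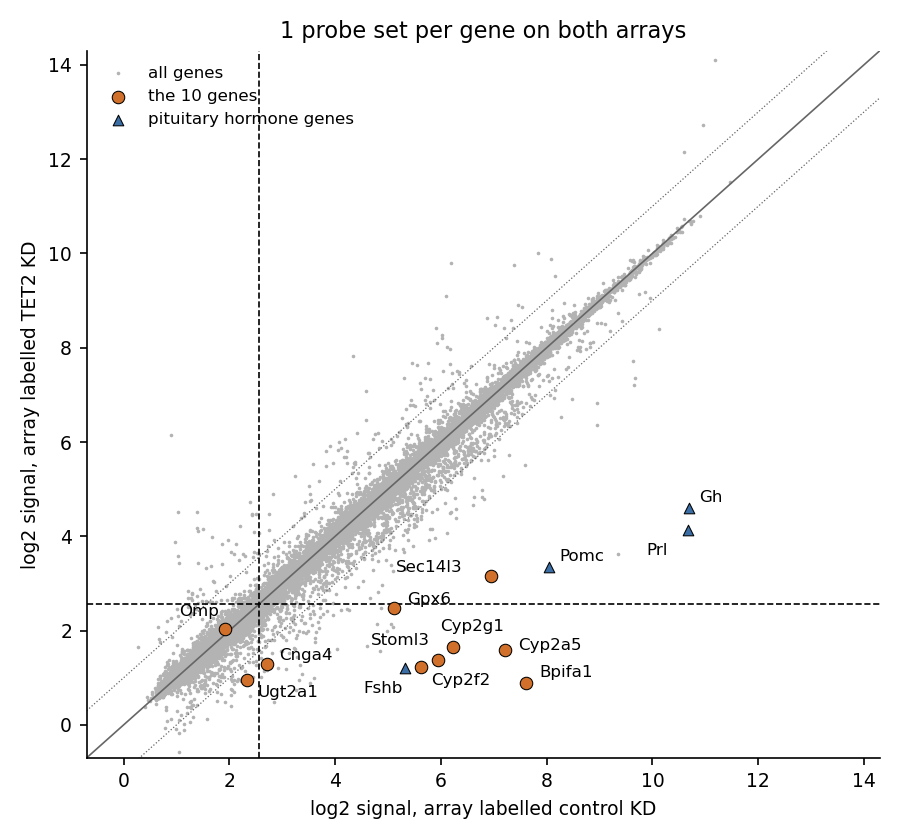
Log2 signal of each gene in the control KD-labelled array (x axis) and the TET2 KD-labelled array (y axis), with the 10 genes as circles and 4 pituitary hormone genes as triangles. The solid line marks equal values, dotted lines 2-fold and dashed lines the floor of 2.55. The 7 lower members lie far below the solid line and all but Sec14l3 lie under the horizontal floor.

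Among the genes with the largest differences downward, the members stood beside pituitary hormones. The members were chosen with this contrast in view, so nothing is read from their number or rank here. Of the 10 most negative differences over all genes, with values under the floor set to it, 6 were members, and the others were Prl (prolactin, 10.66 and 4.13), Gh (growth hormone, 10.69 and 4.60), Xist and Pomc (the corticotropin precursor, 8.04 and 3.35). Of 12 genes of a pituitary list with a probe set, 7 were at or above the floor on at least 1 array, and 4 of these were lower, those 3 and Fshb. The list's levels ran from under the floor to 10.69 in the control KD-labelled array and from under the floor to 4.60 in the other. Tshb, another pituitary hormone subunit, read 2.02 and 0.62. Cga, the subunit that the hormones of Fshb and Tshb share, read 1.29 and 2.80. The part of pituitary RNA in the members' values was not tested. Upward, the 10 largest differences among genes whose symbol is no clone or model name held no member. They ran from 3.60 for Hmgb3 to 2.22 for Cntfr. Between these lay Eif2s3y (a bound, as its control KD-labelled value is under the floor), Nts, Adamts20, Txnip, Gas7, Fam83d, Cdkn3 and Fga. Other probe sets of 2 of these genes differed from the one counted: the second of Txnip read 5.56 and 5.15, and the other 4 of Gas7 were within 2-fold or under the floor, the brightest at 5.13 and 5.23. The second probe sets of Eif2s3y and Cntfr were under the floor on both arrays.

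Other genes of the same epithelia were then read from lists that were chosen, like the members, with earlier results of these data known. The list for olfactory neurons has 22 genes with a probe set besides members, of which 18 were at or above the floor on at least 1 array. Of these 18, 3 were lower and 0 higher, beside 1.26% and 1.14% of all genes. The median was -0.12 beside -0.0071 for all genes. Genes at or above the floor in the control KD-labelled array alone can only differ downward, so nothing is read from it. The 3 lower genes were S100a5, a calcium-binding protein of these neurons (6.79 and 4.97), Cnga2, the main subunit of the olfactory channel (4.04 and 1.62), and Ebf2, an Olf/Ebf factor (3.70 and 2.06). Both further probe sets of Ebf2 were under the floor on both arrays. The other steps of transduction, Gnal (7.53 and 7.29) and Adcy3 (5.29 and 4.93), which brain cells also use, were above the floor on both arrays and within 2-fold. Umodl1, of the olfactory neurons as well, read 2.85 and 0.49, at the floor a difference of -0.30.

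The list for sustentacular and Bowman gland cells has 28 genes besides members, and 19 of them were at or above the floor on at least 1 array. After the floor 1 of the 19 was lower, Ephx1, the microsomal epoxide hydrolase, at 5.92 and 4.58, and 0 were higher. The median was -0.41 beside -0.0071 for all genes. A gene at or above the floor in the control KD-labelled array alone can only differ downward, so nothing is read from this median. As measured, 7 of the 28 were lower by 2-fold or more and 0 higher, beside 1.35% and 1% of all genes. Besides Ephx1 these were the sulfotransferases Sult1d1 (3.52 and 0.88) and Sult1c1 (3.38 and 1.09), the carbonyl reductase Cbr2 (3.26 and 0.73), the cytochrome Cyp1a2 (3.34 and 1.28), the aldehyde dehydrogenase Aldh1a7 (2.97 and 1.91) and the carboxylesterase Ces1d (2.31 and 0.88). All 6 were under the floor in the TET2 KD-labelled array. The floor leaves bounds short of 2-fold for 5 of them and no fold for Ces1d, which was under it on both. Ermn, fixed as a marker of this cell type, read 5.75 and 5.75 and is also an oligodendrocyte gene. The 3 enzymes Gstp1 (9.55 and 9.43), Gstm1 (7.39 and 7.32) and Gsta4 (6.60 and 6.63), which many tissues express, were within 2-fold.

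Secreted and airway markers beyond Bpifa1 were mostly at background on both arrays. Of 16 nasal secretory genes besides Bpifa1, 9 were under the floor on both, among them the odorant-binding proteins Obp1a (0.88 and 0.96) and Obp2a (1.22 and 1.23) and the BPI fold protein Bpifb1 (1.92 and 2.13). Of the 7 others, 0 were lower and 1 was higher, Dmbt1, a mucosal scavenger protein, at 0.98 and 3.89. Of 17 club cell genes besides members 13 were under the floor on both arrays, including both defining secretoglobins Scgb1a1 (1.24 and 1.12) and Scgb3a2 (1.31 and 1.39). Of the other 4 club cell genes Pon1 alone was lower, at least 5.79-fold.

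Other cells of the airway showed few differences. For ciliated cells, 0 of 13 genes besides Sec14l3 passed 2-fold, with a median of 0.10, and of the defining markers Foxj1 read 3.40 and 3.67 while Dnah5 (1.57 and 1.66) and Tekt1 (2.44 and 2.54) were under the floor. For goblet cells 0 of 5 passed, and Muc5ac (1.61 and 1.84), Spdef (1.25 and 1.45) and Agr2 (2.06 and 1.04) were under the floor on both arrays. For basal cells 1 of 6 was lower, the integrin Itga6 (4.89 and 2.97), whose other probe set read 3.73 and 3.78. Krt5 read 4.06 and 3.57, and Krt14 and Trp63 were under the floor. For alveolar cells 0 of 5 passed, with Sftpc (2.09 and 1.90) and Ager (2.49 and 2.49) under the floor.

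Of 13 general epithelial genes at or above the floor on at least 1 array, Epcam alone was lower and 0 were higher. Cdh1 (9.63 and 9.87), Krt18 (7.56 and 7.43), Cldn7 (7.31 and 7.31) and Ocln (4.25 and 3.47) were within 2-fold. As measured, 2 of the 18 with a probe set were lower and 0 higher, beside 1.35% and 1% of all genes. These were Epcam and Krt8 (3.07 and 1.81), for which the floor leaves a bound short of 2-fold. Hepatocytes share several of these cytochromes. Alb (1.12 and 1.10), Apoa1 (1.78 and 1.74) and Cyp3a11 (1.53 and 1.42) were under the floor on both arrays, and of 7 hepatocyte genes that could be read 0 were lower and the fibrinogen chain Fga was higher (6.02 and 8.27). Of the 19 hepatocyte genes with a probe set 12 were under the floor on both arrays, while Ttr (10.60 and 10.73) and Fgg (4.23 and 4.24) were above it on both and within 2-fold. The part of hepatocyte RNA in the members' values was not tested. In bulk RNA, fewer cells of a type and less RNA per cell cannot be told apart.

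**Figure D4:**
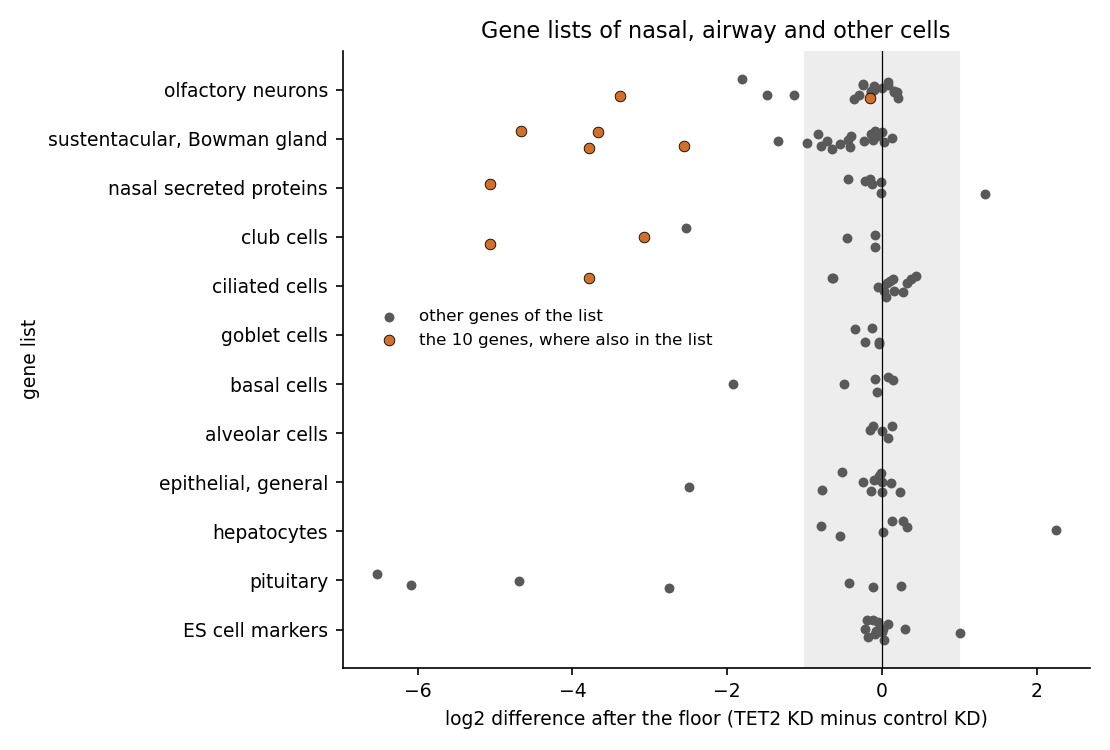
Log2 difference after the floor (x axis, TET2 KD-labelled minus control KD-labelled array) of each gene at or above the floor on at least 1 array, by gene list (y axis). Orange points are the 10 genes where a list holds them, grey points other genes, and the shaded band is within 2-fold. Most grey points lie in the band, and the 4 grey points farthest left are the pituitary hormone genes Prl, Gh, Pomc and Fshb.

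Of the members' relatives by sequence family that could be read, none passed 2-fold except Cnga2. Of 25 other genes of cytochrome P450 family 2 with a probe set, 21 were under the floor on both arrays and 0 of the other 4 passed 2-fold, with Cyp2e1 at 3.09 and 2.45 and Cyp2j6 at 4.25 and 3.84. Of 11 other glucuronosyltransferases 8 were under the floor and 0 of 3 passed, and of 8 other BPI fold proteins 6 were under it and 0 of the remaining pair passed. The other glutathione peroxidases ran from -0.22 for Gpx8 to 0.08 for Gpx2, with 0 of 6 past 2-fold. Of 4 other stomatin domain proteins and 6 other Sec14-related proteins 0 passed, the farthest being Sec14l1 at 4.12 and 3.47. Among other channel subunits of the cyclic nucleotide-gated family Cnga2 was lower, as above, and Cnga1 read 2.92 and 2.88.

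Several members are neighbours on the chromosome. Their choice did not use position but was made with this contrast in view, so nothing is read from the differences that these neighbours share. In RefSeq's gene order Cyp2g1, Cyp2a5 and Cyp2f2 lie in 1 cluster of Cyp2 genes, and among genes with a probe set they are separated only by Cyp2a12, between Cyp2a5 and Cyp2f2. Cyp2a12, chiefly a liver gene, read 1.92 and 2.21. On one side Cyp2b19 (1.92 and 1.89) was at background too. On the other Egln2, an oxygen-sensing prolyl hydroxylase, read 6.47 and 6.30, and Rab4b 6.10 and 6.12. The 3 members thus stood between genes at background on both arrays and genes at a like level on both.

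Over all members, 81 other genes lie among the nearest 5 with a probe set on either side. Of these, 48 were at or above the floor on at least 1 array, and 0 were lower and 1 was higher past 2-fold. Their median difference was 0.0092. The one was Myo7a, an unconventional myosin near Omp, at 3.36 and 4.39. The most negative was Sult1d1, near Ugt2a1, at 3.52 and 0.88, a bound of -0.97 after the floor. As measured Sult1d1 differed by -2.64, beside -1.39 for Ugt2a1, and the floor alone keeps it within 2-fold.

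**Figure D5:**
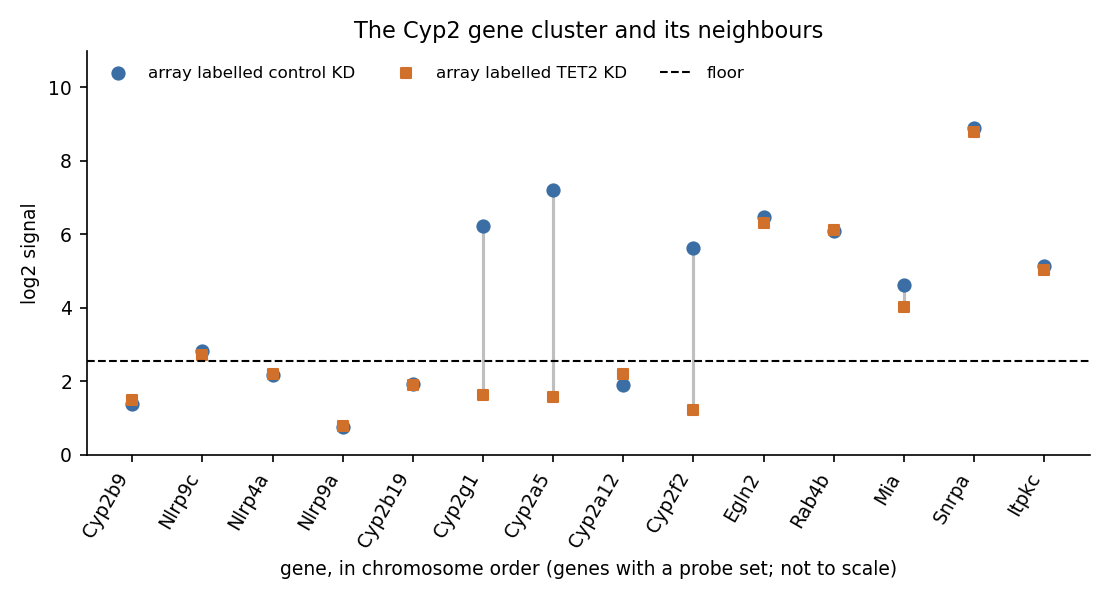
Log2 signal (y axis) of genes with a probe set around the Cyp2 cluster, in chromosome order and not to scale (x axis). Circles are the control KD-labelled array, squares the TET2 KD-labelled array and the dashed line the floor of 2.55. The circles and squares of Cyp2g1, Cyp2a5 and Cyp2f2 lie far apart, and those of every other gene shown lie within 1 log2 unit of each other.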

How the data were processed

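Total RNA of 2 samples was measured on 1 Affymetrix array each. Per the submitters' processing notes the authors used Affymetrix Expression Console, and the deposited values are log2 signal per probe set. No source used here states its version, summary method, background step or scaling. The log base was read from the values, since as natural logarithms the control KD maximum would be 95197.5, above the 65535 of a 16-bit scanner. Scanner files were not used here.

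Of 45037 probe sets other than 104 Affymetrix controls, the platform annotation gives 1 symbol for 28898, several for 551 and none for 15588. A gene was read by its probe set with the highest mean, with a floor at the median, 2.55. The text names all members, list genes past 2-fold after the floor (up to 4 each way), fixed cell type markers, the 10 largest differences each way and neighbours past 2-fold. Symbols that are clone or model names were left out of the 10 largest differences. Others were named after their values were seen. Of 345 symbols in the members and 19 lists, 270 found a probe set by symbol or Entrez ID. RefSeq GRCm38.p6 tables gave gene order and promoters. The members and lists were chosen with earlier results of these data known. The procedure was tested on simulated data. Python 3.11.15, numpy 2.4.6, pandas 2.3.3 and matplotlib 3.10.9 were used.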

Additional observations from a re-analysis of the deposited data

How the results depend on the processing

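Across 11 alternatives the number of members lower by 2-fold or more was 5 to 8 and none was higher. A floor at the 25th percentile gave 8, adding Cnga4, and one at the 75th percentile gave 5, losing Cyp2f2 and Gpx6. Leaving out probe sets whose names end in _a_at, _s_at or _x_at, together called shared here, gave 5. The one probe set of Cyp2a5 ends in _s_at and that of Cyp2f2 in _a_at. The 68 values of member differences cover the 8 members with a fold in the main setting, not Ugt2a1 and Omp. All 68 were below 0, from -6.74 to -2.72 for Bpifa1 and from -2.65 to -0.21 for Gpx6. As measured, the counted probe set of Omp differed by 0.12. No called direction was reversed, but other floors and thresholds act on the same values and cannot change a sign, so nothing is read from that. Over all genes, 51 were lower and 68 higher when the floor was the 75th percentile, 95 and 86 in the mean of all probe sets, 602 and 203 at 1.5-fold, and 29 and 19 at 4-fold. Of the list genes other than members, 11 were lower, against 19 at the 25th percentile floor, 5 at the 75th, 7 without shared probe sets, 20 at 1.5-fold and 6 at 4-fold. In settings added after the data were seen, 2, 0, 0, 3 and 0 neighbouring genes passed under these 5, against 1. The median number of CG dinucleotides was 2 in the 250 bases before the start. The causes were not tested, beyond the fewer probe sets or other bounds that each setting leaves. No paired analysis was possible because each group has 1 array. Values near the floor limit what can be read for Cnga4, Ugt2a1 and Omp.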

Other observations

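A further 5 genes that were lower in the TET2 KD-labelled array were named after their values were seen, and belong to no fixed list. The neutrophil proteins S100a8 and S100a9 read 4.97 and 1.99, and 5.06 and 2.55, at least 5.35-fold and 5.68-fold lower. The immunoglobulin segment Igkj1 read 4.86 and 2.47, and Jchain, the joining chain of secreted antibodies, 5.09 and 3.27. Reg3g, a secreted antibacterial lectin of mucosal epithelia, read 4.60 and 1.67. Each of these genes was at or above the floor in the control KD-labelled array. Of secreted defence genes in the nasal secretory list, Ltf (4.05 and 3.61), Lyz2 (4.54 and 4.42) and Pigr (2.71 and 2.55) were within 2-fold, and Dmbt1 (0.98 and 3.89) was higher.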
